A study of Homo sapiens with 3 samples.

Results

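The genes described here are 40 regulators of programmed cell death, chosen by symbol from the 46427 genes of the deposited table. They comprise BCL2 family members that protect mitochondria or open them, caspases, inhibitors of apoptosis proteins (IAPs) and their antagonists, and receptors and adaptors that carry a death signal from the cell surface. RNA-seq of a human breast cancer line is compared here between its parental form, MM468, and the drug-resistant MM468/PR, each with 1 library. MM468 is MDA-MB-468, an epithelial line from a triple-negative breast cancer, and the parental cells had no drug treatment. MM468/PR cells were the survivors of exposure to paclitaxel (a taxane that stabilizes microtubules) at 2 to 320 nmol/L. The labels give the wild-type genotype to both lines and name no other agent for them, and whether the resistant line is 1 clone or a mixture, and whether drug was present at harvest, is not given in the sources used here.

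Intrinsic apoptosis is decided at the outer mitochondrial membrane, where BAX and BAK1 form pores unless BCL2, BCL2L1 (BCL-XL), BCL2L2 (BCL-W) or MCL1 hold them or their activators. BH3-only proteins such as BCL2L11 (BIM), BMF, BAD and BBC3 (PUMA) sense stress and occupy the protective members or activate the pores. Released cytochrome c (CYCS) assembles APAF1 into the apoptosome, which activates CASP9, while XIAP blocks caspases and DIABLO and HTRA2 relieve that block. Death receptors act through FADD, TRADD and RIPK1 on CASP8 and CASP10, with CFLAR (FLIP) as their inhibitor, and many anticancer drugs, taxanes included, kill epithelial tumor cells through these pathways.

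The counts totalled 32704885 in the parental and 43242628 in the MM468/PR library, and 39 of the 40 genes had 10 or more counts in both, 38 of them 100 or more. Levels between genes are given as the deposited TPM values, which are corrected for transcript length. Differences between lines are fold changes of counts scaled by TMM, an edgeR factor that corrects for library size and composition, and the range after a fold change is its 95% counting interval. With 1 library per line, that interval covers counting error only, no spread between cultures was measured, and no p-value is given. ABCB1, the drug efflux pump, had 10 counts in parental cells and 8171 in the MM468/PR line. The epithelial markers EPCAM, CDH1, KRT7, KRT8, KRT18 and KRT19 stood at 47.3 TPM or more in both libraries. ESR1 was at 1.69 and 1.45 TPM, PGR was at 0 in parental cells and had 7 counts in MM468/PR cells, and ERBB2 was at 32.3 and 28.1 TPM. The most abundant leukocyte and fibroblast markers were CD68, at 8.17 and 2.08 TPM, and COL1A1, at 7.81 and 7.61 TPM, while LUM was at 0 in both libraries and the endothelial markers PECAM1, VWF and CDH5 were at 0.274 TPM or less.

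Most of the apoptosis regulators differed between the lines by less than 2-fold. Of the 39 genes compared, 2 passed 2-fold upward in MM468/PR cells, CASP1 and CASP4, and 7 passed it downward: BCL2, CASP10, BAD, TRADD, BCL2L14, BOK and CASP2. The upward share, 5.13%, compares with 20.5% of all 19099 genes compared, and the downward share, 17.9%, with 13.5%. Among genes with 100 or more counts in 1 of the 2 libraries, 11.6% passed 2-fold upward and 12.7% downward, and the 38 apoptosis regulators of that depth gave 2 and 6. The upward share of the regulators thus lay under that of all genes, and the downward share was near it, a difference of 1 or 2 genes that is not read as a result. The counting interval excluded no change for 32 of the 39 genes, of which most differed by less than 2-fold. The matching share of all genes is not given here, so this count is not read as a trait of the regulators. In all, 15 of the regulators had a log2 fold change above 0 and 24 one below 0, with a median of -0.14. Of all 19099 genes compared, 10234 were above 0 and 8865 below 0, with a median of 0.07. With library size alone and no composition factor, the median over all genes moved to 0.30, and the share of higher genes among those past 2-fold moved from 60.4% to 71.2%. Small differences therefore depend on the scaling, and the deposited TPM, which carry no such factor, place the MM468/PR values higher. By TPM with a pseudocount of 1, BCL2, CASP10 and BAD still passed 2-fold downward, while TRADD, BCL2L14, BOK and CASP2 did not.

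**Figure D1:**
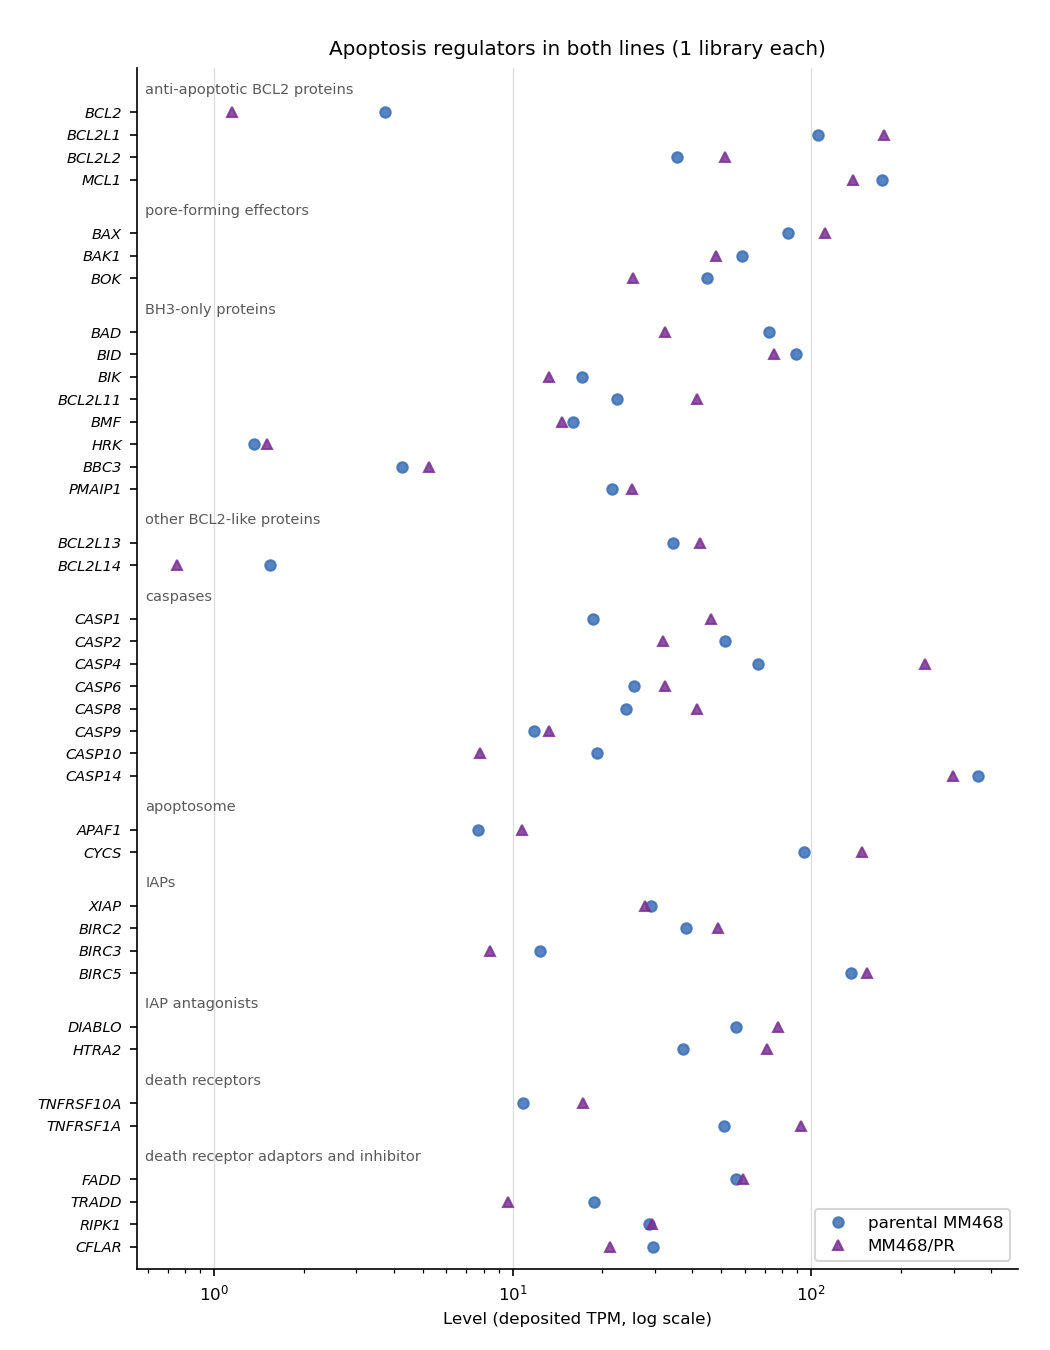
Level of each of the 39 detected apoptosis regulators (deposited TPM, log scale) in parental MM468 (circles) and MM468/PR cells (triangles), grouped by role, with 1 point per library. CASP14 was the highest gene in both lines, at 363 and 299 TPM, and BCL2, at 3.75 and 1.15 TPM, lay far under BCL2L1 and MCL1.

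Promoter sequences are shown for 4 of the genes with a 2-fold difference and a RefSeq promoter: CASP4, higher in MM468/PR cells, and BCL2, BAD and BOK, lower there. Each line holds the 250 bases before a RefSeq start site (GRCh38.p14), read 5′ to 3′ on the strand of the gene, and capitals mark matches on either strand to an NF-kB motif, a p53-family half-site, the GC box GGGCGG or the AhR core GCGTG. The windows are chr11:104968575-104968824 (minus strand) for CASP4, chr18:63319770-63320019 (minus) for BCL2, chr11:64284705-64284954 (minus) for BAD and chr2:241558495-241558744 (plus) for BOK.
CASP4: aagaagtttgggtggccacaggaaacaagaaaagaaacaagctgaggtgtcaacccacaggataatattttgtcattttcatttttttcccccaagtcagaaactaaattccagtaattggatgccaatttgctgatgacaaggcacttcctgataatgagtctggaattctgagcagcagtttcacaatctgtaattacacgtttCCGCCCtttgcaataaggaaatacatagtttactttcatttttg
BCL2: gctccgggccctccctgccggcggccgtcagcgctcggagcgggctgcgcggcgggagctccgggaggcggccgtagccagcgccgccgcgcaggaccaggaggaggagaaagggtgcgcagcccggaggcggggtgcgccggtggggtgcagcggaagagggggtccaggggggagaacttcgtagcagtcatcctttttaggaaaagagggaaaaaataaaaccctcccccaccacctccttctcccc
BAD: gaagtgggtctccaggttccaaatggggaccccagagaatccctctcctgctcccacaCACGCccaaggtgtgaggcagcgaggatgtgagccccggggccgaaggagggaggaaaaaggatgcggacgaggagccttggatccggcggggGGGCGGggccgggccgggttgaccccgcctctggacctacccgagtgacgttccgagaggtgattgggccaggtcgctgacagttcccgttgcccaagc
BOK: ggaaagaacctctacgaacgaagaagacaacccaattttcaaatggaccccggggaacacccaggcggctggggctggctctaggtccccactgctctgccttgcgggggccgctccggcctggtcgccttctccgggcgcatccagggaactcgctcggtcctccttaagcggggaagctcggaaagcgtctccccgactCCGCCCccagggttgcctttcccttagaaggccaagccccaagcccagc

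The CASP4 window was AT-rich, with 38.0% G and C, and held 1 match, a GC box on the opposite strand. The BCL2 window had 70.0% G and C and held none of the 4 motifs, which says only that these letters are not in this window. The BAD window, with 66.4%, held 1 GC box and 1 AhR core, and the BOK window, with 64.4%, held 1 GC box. The BCL2 and BOK windows lie inside the gene spans given below, so each precedes a start site within the gene and not the outermost one. In all, 32 of the 40 genes were found in the promoter table, with 58 windows between them, and BCL2L2, MCL1, BIK, CASP1, CASP10, BIRC5, TRADD and TNFRSF10A had no entry. An NF-kB match was present in 3.45% of these windows (BIRC3 and CASP14) and in 6.88% of all 35116 promoters, and a p53-family half-site in 5.17% (CASP8, CASP9 and BAK1) and 5.57%. A GC box was present in 60.3% of them and 42.6% of all promoters, and an AhR core in 37.9% and 32.2%. Some of the windows of the same gene overlap, and the median share of G and C was 62.8% in the 58 windows and 58% in all promoters. The higher GC-box share is therefore not read as a trait of the regulators. These matches are letters in the sequence and say nothing of binding.

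Among the anti-apoptotic BCL2 proteins, the lines differed in which gene led: MCL1, a short-lived protein that sequesters BAK1 and BIM, in parental MM468, and BCL2L1 in MM468/PR cells. BCL2L1 (chr20:31664452-31723963) encodes BCL-XL and had 3957 counts in parental cells and 7995 in the MM468/PR line, or 106 and 175 TPM. It was 1.31-fold higher (1.26 to 1.36) in MM468/PR cells. BCL2L2, which encodes BCL-W, had 1866 and 3320 counts, or 35.6 and 51.5 TPM, and was 1.15-fold higher (1.09 to 1.22). MCL1 (chr1:150574558-150579610) had 10052 counts in parental cells and 9895 in the MM468/PR line, or 173 and 138 TPM, and was 1.57-fold lower (1.52 to 1.61). BCL2L1 and BCL2L2 were thus higher and MCL1 was lower in MM468/PR cells.

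BCL2 (chr18:63123346-63320090), the founding member of the family, was the scarcest of the 4 genes detected, with 349 counts in parental cells and 143 in the MM468/PR line, or 3.75 and 1.15 TPM. It was 3.76-fold lower (3.09 to 4.6) in MM468/PR cells, the largest fold difference among the 39 genes on the scaled counts. This rank depends on the scaling. With library size alone, CASP4 differed more, at a log2 fold change of 1.76 against -1.69 for BCL2, and likewise by TPM and FPKM. In RNA pooled from a whole culture, fewer cells with BCL2 and less of its RNA in each cell cannot be told apart. BCL2A1, a protective member best known from blood cells, had 0 counts in both libraries, where 3 counts correspond to 0.0917 and 0.0694 CPM (counts scaled to library size). Summed over the 5 genes, the anti-apoptotic group stood at 318 TPM in parental MM468 and 365 TPM in MM468/PR cells. TPM carry no composition factor, so these sums do not show a higher level on the scaled counts. There BCL2L1 and BCL2L2 were higher, and MCL1 and BCL2 were lower.

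Of the pore-forming effectors, BAX was higher and BAK1 and BOK were lower in MM468/PR cells, and BOK passed the 2-fold line. BAX had 1227 counts in parental cells and 2165 in the MM468/PR line, or 83.8 and 111 TPM, and was 1.14-fold higher (1.07 to 1.23). BAK1, the effector that resides on mitochondria, had 1883 and 1900 counts, or 58.6 and 48.0 TPM, and was 1.53-fold lower (1.43 to 1.63). BOK (chr2:241551393-241574131, plus strand), a BAX-like protein that is not held by the protective members, had 1752 counts in parental cells and 1205 in the MM468/PR line, or 44.8 and 25.4 TPM, and was 2.24-fold lower (2.08 to 2.41). By TPM, the 3 effectors summed to nearly the same level, 187 for the parental library and 185 for the MM468/PR library. Because TPM carry no composition factor, these sums do not show an equal level on the scaled counts. On those counts BAK1 and BOK were lower by more than BAX was higher.

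Of the 8 BH3-only genes, BCL2L11 was above and the other 7 were below the parental level on the scaled counts, and BAD passed 2-fold. BAD (chr11:64269828-64284704, minus strand), which binds BCL-XL and BCL2 when survival kinases are inactive, had 1122 counts in parental cells and 612 in the MM468/PR line, or 72.1 and 32.4 TPM, and was 2.83-fold lower (2.56 to 3.12). BAD overlaps GPR137, on the opposite strand, over 14174 bases, and GPR137 had 2144 and 2913 counts. Whether reads were counted by strand is not given in the sources used here, so reads of the 2 genes may not have been separated. BCL2L11, which encodes BIM and is bound by all protective members, had 1601 counts in parental cells and 3574 in the MM468/PR line, or 22.5 and 41.6 TPM, and was 1.45-fold higher (1.36 to 1.54).

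BID, which links CASP8 to mitochondria and was the most abundant BH3-only gene in both lines, had 2902 and 2998 counts, or 89.0 and 74.8 TPM, and was 1.49-fold lower (1.42 to 1.57). BMF, whose product is tied to the cytoskeleton until it is released, had 1106 and 1252 counts, or 16.0 and 14.7 TPM, and was 1.36-fold lower (1.26 to 1.48). BIK, an endoplasmic reticulum protein of the same class, had 240 and 229 counts, or 17.1 and 13.2 TPM, and was 1.62-fold lower (1.34 to 1.95). All 3 were lower in MM468/PR cells by less than 2-fold.

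The p53-responsive genes of this class, BBC3 and PMAIP1 (NOXA), were within counting error of the parental level. BBC3 had 118 and 176 counts and was 1.03-fold lower (0.812 to 1.31), and PMAIP1 had 677 and 1031 counts and was 1.01-fold lower (0.918 to 1.12). By TPM and with library size alone both were above the parental level, at log2 fold changes of 0.17 to 0.29 for BBC3 and 0.20 to 0.22 for PMAIP1. Beside them, 12 p53 target genes outside apoptosis had a median log2 fold change of 0.20, with 2 past 2-fold upward and 1 downward. Among all genes compared, 20.5% passed 2-fold upward and 13.5% downward. The part of the p53 target genes in the values of BAX, BBC3 and PMAIP1 was not tested. HRK, a BH3-only gene first known from neurons, was scarce, with 120 and 161 counts, or 1.36 and 1.51 TPM. It was 1.15-fold lower (0.90 to 1.46), within counting error, and slightly above the parental level by TPM.

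The other BCL2-like genes are less well characterized. BCL2L13, an outer mitochondrial membrane protein, had 2368 and 3502 counts and was 1.04-fold lower (0.989 to 1.10), while TPM and library size alone put it above the parental level. BCL2L14 had only 45 and 28 counts, or 1.54 and 0.750 TPM, and was 2.47-fold lower (1.51 to 4.13). Its fold change passed 2-fold, but the counting interval reached under it.

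**Figure D2:**
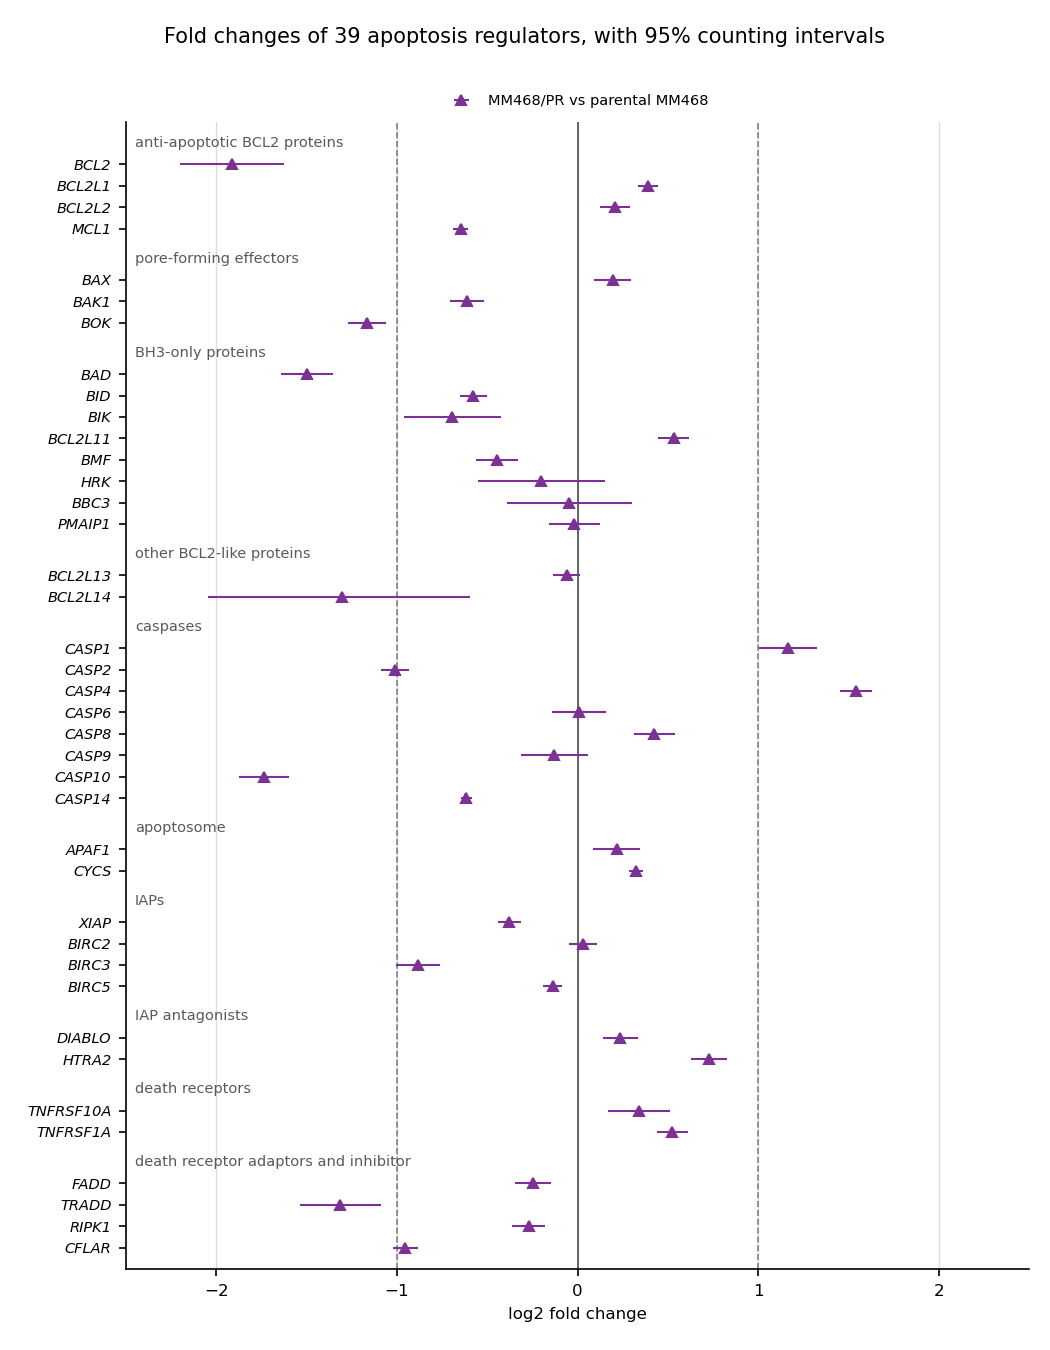
Log2 fold changes of the 39 apoptosis regulators in MM468/PR against parental MM468 (triangles) with 95% counting intervals (bars), grouped by role, with dashed lines at 2-fold. CASP1 and CASP4 lay past the upper line, and BCL2, BAD, BOK, BCL2L14, CASP2, CASP10 and TRADD past the lower line.

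Of the 8 caspases, the inflammatory caspases CASP1 and CASP4 passed 2-fold upward in MM468/PR cells, and the initiators CASP2 and CASP10 passed it downward. The other initiators, CASP8 and CASP9, did not pass 2-fold, and CASP8 was higher, so the initiators did not share a direction. CASP4 (chr11:104942866-104968574, minus strand), which senses intracellular lipopolysaccharide and drives pyroptosis, had 1276 counts in parental cells and 5720 in the MM468/PR line, or 66.3 and 240 TPM. It was 2.91-fold higher (2.74 to 3.09) in MM468/PR cells, and it passed from the ninth highest level among the 40 genes in parental cells to the second. CASP1 (chr11:105025443-105036686), which matures interleukin-1β within inflammasomes, had 418 counts in parental cells and 1445 in the MM468/PR line, or 18.5 and 46.1 TPM, and was 2.24-fold higher (2.01 to 2.51). The counting intervals of both genes lay above 2-fold.

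The genes lie 56.9 kb apart on chromosome 11, and CARD16, which is nearly identical to part of CASP1 and can share its reads, lies beside them and had 118 and 289 counts. CASP5, another inflammatory caspase of this cluster, had 0 and 2 counts. MSANTD4 was the other gene of this region with a log2 fold change past 2-fold on more than 3 counts in each line. It lies 1025 kb from the middle of the CASP1 and CASP4 interval, beyond CARD18 and GRIA4, and had 642 and 2319 counts and a log2 fold change of 1.23. PDGFD, at the other end of the region, had 0 and 28 counts. With it, 2 of the 3 other protein-coding genes compared in this region passed 2-fold upward, beside 20.5% of all genes compared. Both CASP1 and CASP4 are known to respond to interferon. Of 12 other interferon-responsive genes, 1 passed 2-fold upward and 5 downward, with a median log2 fold change of -0.99. For all genes compared, the shares were 20.5% upward and 13.5% downward. The part of the interferon-responsive genes in the values of CASP1 and CASP4 was not tested. Of the partners of these caspases, GSDMD and PYCARD, chosen after their values were seen, differed less. GSDMD, the pore protein that CASP1 and CASP4 cleave, had 988 and 1387 counts and was 1.10-fold lower (1.01 to 1.19). PYCARD, the inflammasome adaptor of CASP1, had 122 and 156 counts and was 1.21-fold lower (0.944 to 1.54). NLRP1, another listed caspase regulator also named after its values were seen, was instead 2.65-fold higher (1.21 to 6.70), on only 8 and 33 counts.

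CASP10, an initiator recruited by FADD, had 1383 counts in parental cells and 641 in the MM468/PR line, or 19.1 and 7.80 TPM, and was 3.33-fold lower (3.03 to 3.66). CASP8, the main initiator of the same receptor complexes, was instead higher in MM468/PR cells, with 921 counts in parental cells and 1906 in the MM468/PR line, or 23.9 and 41.6 TPM, and was 1.34-fold higher (1.24 to 1.45). CFLAR, CASP10 and CASP8 are neighbours on chromosome 2 (chr2:201116164-201176687, chr2:201183141-201229406 and chr2:201233463-201287711), with gaps of 6.45 and 4.06 kb between them. CFLAR and CASP10 were lower and CASP8 higher than in parental cells, so the 3 adjacent genes did not share a direction. Of the 19 other protein-coding genes compared within 1000 kb of them, 3 passed 2-fold, all of them downward. The median log2 fold change of the 19 was -0.43. For all genes compared, the shares past 2-fold were 20.5% upward and 13.5% downward.

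**Figure D3:**
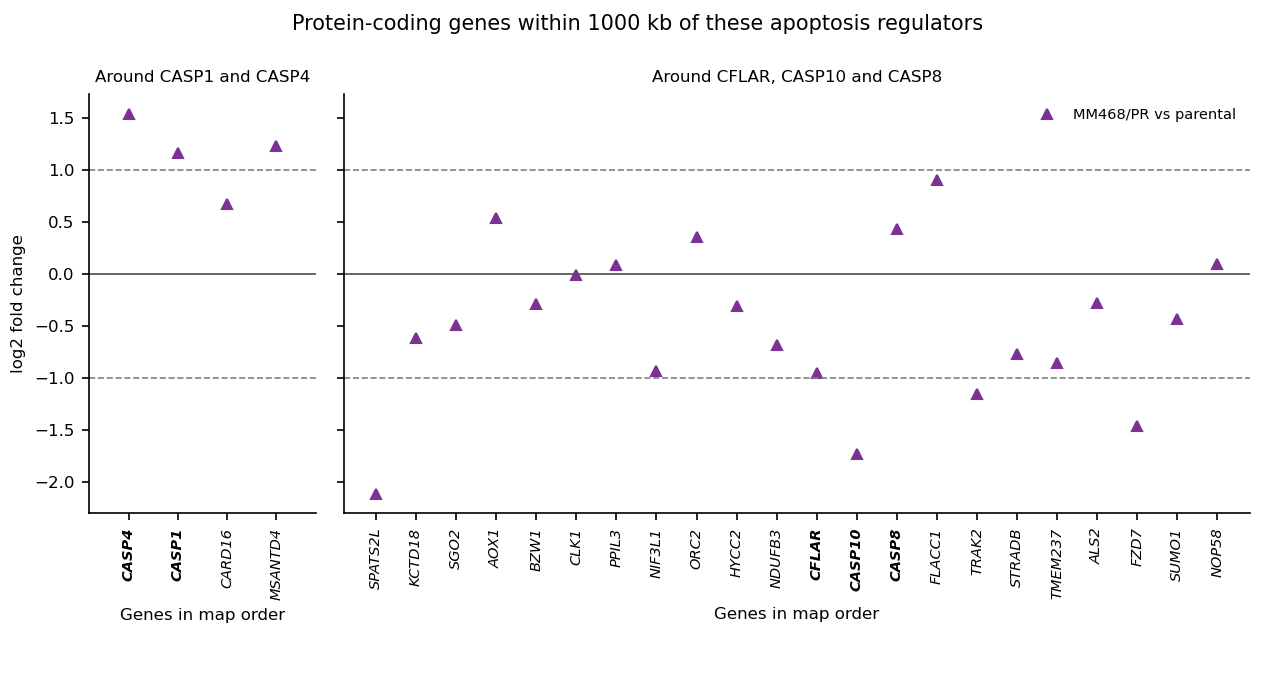
Log2 fold changes in MM468/PR against parental MM468 (triangles) of the protein-coding genes with more than 3 counts in each line and 10 or more in 1 that lie within 1000 kb of CASP1 and CASP4 (left) or of CFLAR, CASP10 and CASP8 (right), in map order, with dashed lines at 2-fold and the apoptosis regulators in bold. CASP4, CASP1 and MSANTD4 lay above the upper line, whereas CASP10, at -1.73, lay between CFLAR at -0.95 and CASP8 at 0.42.

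CASP2 (chr7:143288351-143307696, plus strand), an initiator activated with PIDD1 after DNA damage or centrosome gain, had 3099 counts in parental cells and 2374 in the MM468/PR line, or 51.3 and 31.9 TPM. It was 2.01-fold lower (1.91 to 2.12), just past the 2-fold line and with an interval that included 2-fold. With library size alone, CASP2 and BOK did not reach 2-fold. PIDD1, the activator of CASP2, also named after its values were seen, had 889 and 600 counts and was 2.28-fold lower (2.06 to 2.54). CRADD, another listed caspase regulator named after its values were seen, had 152 and 192 counts. It was 1.22-fold lower (0.980 to 1.52), within counting error. CASP9, the initiator of the apoptosome, had 405 and 571 counts and was 1.09-fold lower (0.961 to 1.24), within counting error, and its level was above the parental one by TPM. The effector caspase CASP6 had 618 and 958 counts and was 1.01-fold higher (0.908 to 1.11), also within counting error. CASP6 overlaps MCUB, on the opposite strand, over 24332 bases, and MCUB had 509 and 1397 counts. Reads of these 2 genes may not have been separated. CASP14, known for its part in skin cornification and not in apoptosis, was the most abundant of the 40 genes in both lines, with 16729 counts in parental cells and 16825 in the MM468/PR line, or 363 and 299 TPM, and was 1.53-fold lower (1.5 to 1.57).

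Both apoptosome genes were modestly higher in MM468/PR cells. CYCS had 7575 counts in parental cells and 14632 in the MM468/PR line, or 94.3 and 148 TPM, and was 1.25-fold higher (1.22 to 1.29). APAF1, its partner in the complex, had 770 counts in parental cells and 1380 in the MM468/PR line, or 7.64 and 10.8 TPM, and was 1.16-fold higher (1.06 to 1.27).

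Of the IAPs, BIRC3 and XIAP were lower in MM468/PR cells, and no IAP passed 2-fold. BIRC3 (chr11:102317484-102339403, plus strand) encodes cIAP2, a ubiquitin ligase of the TNF receptor complex, and had 1257 counts in parental cells and 1051 in the MM468/PR line, or 12.4 and 8.39 TPM. It was 1.84-fold lower (1.70 to 2.00). BIRC2, which encodes the related cIAP1 and lies 7.81 kb from BIRC3, had 2145 and 3377 counts, or 38.1 and 48.6 TPM, and was 1.02-fold higher (0.967 to 1.08), within counting error. BIRC3 is a well-known target of NF-kB. Among 12 other NF-kB response genes, 2 passed 2-fold upward and 5 downward, with a median log2 fold change of -0.58. The shares for all genes compared were 20.5% upward and 13.5% downward. The part of NF-kB in the value of BIRC3 was not tested.

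XIAP, which binds and inhibits CASP9 and the effector caspases, had 3617 counts in parental cells and 4296 in the MM468/PR line, or 29.0 and 27.8 TPM, and was 1.30-fold lower (1.24 to 1.36). BIRC5 (survivin), which is made mainly in dividing cells, was the most abundant IAP in both lines, with 5156 counts in parental cells and 7224 in the MM468/PR line, or 136 and 154 TPM. It was 1.10-fold lower (1.06 to 1.14), and this direction turned by TPM, by FPKM and with library size alone, at log2 fold changes of 0.08 to 0.18. A list of 15 other proliferation genes had a median log2 fold change of -0.66, with 4 past 2-fold, all downward. Among all genes compared, 20.5% passed 2-fold upward and 13.5% downward. The part of the proliferation genes in the value of BIRC5 was not tested.

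Both IAP antagonists were higher in MM468/PR cells. DIABLO (SMAC) had 1352 and 2459 counts, or 56.2 and 77.5 TPM, and was 1.18-fold higher (1.10 to 1.26). HTRA2, a mitochondrial protease that also binds XIAP, had 1130 and 2882 counts, or 37.3 and 71.3 TPM, and was 1.65-fold higher (1.54 to 1.77). HTRA2 overlaps AUP1 on the opposite strand by 302 bases, and AUP1 had 4777 and 6076 counts. LOXL3, also on the opposite strand, overlaps HTRA2 by 1299 bases and had 218 and 339 counts.

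TNFRSF1A and TNFRSF10A, the 2 death receptors among the 40 genes, were higher in MM468/PR cells, while TRADD and the inhibitor CFLAR were lower. TNFRSF1A, the main receptor for TNF, had 1644 counts in parental cells and 3650 in the MM468/PR line, or 51.0 and 92.2 TPM, and was 1.44-fold higher (1.36 to 1.53). TNFRSF10A, a receptor for TRAIL, had 432 and 843 counts, or 10.9 and 17.2 TPM, and was 1.27-fold higher (1.13 to 1.42). TRADD (chr16:67154185-67159909), the adaptor that TNFRSF1A recruits, had 432 counts in parental cells and 268 in the MM468/PR line, or 18.8 and 9.64 TPM. It was 2.48-fold lower (2.13 to 2.91), so the receptor and its adaptor differed in opposite directions.

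FADD, the adaptor of the TRAIL receptors and the most abundant gene of its group, had 1417 and 1844 counts, or 56.1 and 59.3 TPM, and was 1.19-fold lower (1.10 to 1.27). RIPK1, the kinase that can turn the TNF signal to survival or death, had 1704 and 2179 counts and was 1.21-fold lower (1.13 to 1.29). By TPM, FADD and RIPK1 lay 0.08 and 0.03 above the parental level on the log2 scale, so their direction depended on the scaling. CFLAR, which competes with CASP8 for FADD, had 3754 counts in parental cells and 2990 in the MM468/PR line, or 29.6 and 21.2 TPM. It was 1.94-fold lower (1.84 to 2.03), just short of 2-fold.

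The balance of opposing or partner genes was compared within each library, where scaling cancels. The 12 pairs were chosen with the values of the genes known and are descriptions. The TPM ratio of BAX to BCL2L1 was 0.793 in parental cells and 0.636 in the MM468/PR line, and on the counts the ratio was 1.15-fold lower (1.06 to 1.24) in MM468/PR cells. BAK1 to BCL2L1 was 0.554 in parental cells and 0.274 in the MM468/PR line, and BAD to BCL2L1 was 0.682 in parental cells and 0.185 in the MM468/PR line, a count ratio 3.70-fold lower (3.33 to 4.12) in MM468/PR cells. BCL2L1 thus stood higher against each of these 3 pro-apoptotic genes in MM468/PR cells. BAX to MCL1 was 0.485 in parental cells and 0.809 in the MM468/PR line, and BAX to BCL2 was 22.3 in parental cells and 96.9 in the MM468/PR line, a count ratio 4.31-fold higher (3.50 to 5.30) in MM468/PR cells, so BAX stood higher against MCL1 and BCL2.

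BCL2L11 to BCL2L1 was 0.212 in parental cells and 0.237 in the MM468/PR line, a count ratio 1.10-fold higher (1.03 to 1.19) in MM468/PR cells. Both genes were higher there, and BCL2L11 stood slightly higher against BCL2L1. BMF to BCL2L1 was 0.151 in parental cells and 0.0837 in the MM468/PR line. For the receptor pathway, CASP8 to CFLAR was 0.808 in parental cells and 1.96 in the MM468/PR line, a count ratio 2.60-fold higher (2.37 to 2.85) in MM468/PR cells. CASP8 was thus under CFLAR in parental cells and over it in MM468/PR cells by TPM. CASP10 to CASP8 was 0.801 in parental cells and 0.187 in the MM468/PR line, a count ratio 4.47-fold lower (3.95 to 5.05) in MM468/PR cells. DIABLO to XIAP was 1.94 in parental cells and 2.79 in the MM468/PR line, and HTRA2 to XIAP was 1.29 in parental cells and 2.57 in the MM468/PR line, so both antagonists stood higher against XIAP. APAF1 to CYCS was 0.0810 in parental cells and 0.0730 in the MM468/PR line, a count ratio 1.08-fold lower (0.983 to 1.18) in MM468/PR cells and within counting error.

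**Figure D4:**
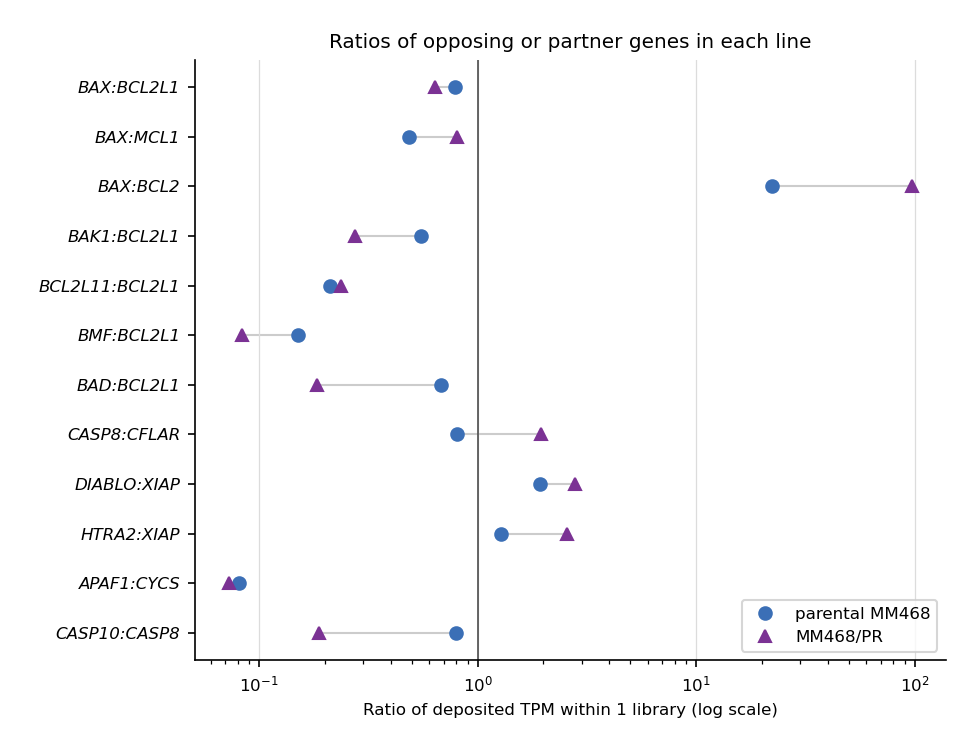
Ratio of the deposited TPM of 12 pairs of opposing or partner genes within each library (log scale), with a vertical line at 1; circles, parental MM468; triangles, MM468/PR. CASP8:CFLAR crossed the line, from 0.808 to 1.96, and BAX:BCL2 was the highest ratio in both lines, at 22.3 and 96.9.

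The other genes of these pathways, chosen with earlier results known, were taken from a list of 60. Of these, 50 were compared, and 4 passed 2-fold upward and 12 downward, with a median log2 fold change of -0.16, beside 20.5% upward, 13.5% downward and a median of 0.07 for all genes compared. AIFM2 (FSP1), an oxidoreductase also known for blocking ferroptosis, had 543 counts in parental cells and 110 in the MM468/PR line and was 7.60-fold lower (6.19 to 9.43). VDAC2, the mitochondrial channel that holds BAK1, had 7231 and 3153 counts and was 3.54-fold lower (3.39 to 3.69). BAG3, a stress-induced partner of HSP70, had 1195 and 724 counts and was 2.55-fold lower (2.32 to 2.80), and MLKL, the executioner of necroptosis, had 507 and 326 counts and was 2.4-fold lower (2.08 to 2.76). These 4 genes were lower in MM468/PR cells.

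Receptors and ligands gave several of the other large differences, in both directions. TNFRSF21, death receptor 6, had 4337 and 1945 counts and was 3.44-fold lower (3.26 to 3.63), and TNFSF10, the gene of TRAIL, had 927 and 510 counts and was 2.80-fold lower (2.51 to 3.13). FAS, the receptor of FAS ligand, was higher, with 45 and 198 counts, and was 2.85-fold higher (2.06 to 4.04). TNFRSF10D, a decoy receptor for TRAIL, had 306 and 1203 counts and was 2.55-fold higher (2.25 to 2.90), and TRAF1, an adaptor of TNF receptors, had 66 and 235 counts and was 2.31-fold higher (1.75 to 3.08).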

How the data were processed

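RNA-seq libraries of parental MM468 and MM468/PR cells, 1 each, were compared. Per the labels, libraries were made with the TruSeq Stranded mRNA kit. The submitters' processing notes name Trimmomatic 0.39, HISAT2 2.2.1, StringTie 2.2.1 and the build GRCh38, and how the counting treated strand and multimapped reads is not given in the sources used here. The table deposited by the authors holds, per gene and library, raw read counts, FPKM (scaled by length and depth) and TPM. Totals were 32704885 and 43242628 counts, a depth at which 3 counts equal 0.0917 and 0.0694 CPM.

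Lines were grouped by the labels, and the 40 genes were taken by symbol, by a rule that uses no measured value. That rule, the gene lists and the pairs were nevertheless set with earlier results of these data known. Counts were scaled with TMM factors (0.948 and 1.11) computed over all 3 libraries of the series in edgeR 4.0.16 (R 4.3.3). The third library entered these factors only, and its values and some genes are not reported here. A gene was compared with 10 or more counts in 1 of the 2 libraries, log2 fold changes used a prior count of 0.125, and a fold of 2 or more was the call. The 95% interval is exact binomial, on the share of 1 library in the sum of both counts, and covers counting error only; for a ratio of 2 genes it is the normal interval of the log ratio from 4 counts. The quasi-likelihood test could not be fitted with 1 library per line, so no p-value is given. The fold script was tested on simulated data.

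All 40 genes could be named with 10 or more counts in a library. Of 60 other apoptosis genes, those past 2-fold with 100 or more counts in 1 of the 2 libraries could be named, at most the 10 largest, and genes named otherwise are said to be so. The 11 alternatives covered normalization (DESeq2 1.42.0 size factors among them), prior count, count minimum, call rule and unit. Promoters and positions are from RefSeq (GRCh38.p14). Scripts used pandas 2.3.3, numpy 2.4.6, scipy 1.17.1 and matplotlib 3.10.9.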

Additional observations from a re-analysis of the deposited data

How the results depend on the processing

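No paired analysis was possible because each line has 1 library. For the same reason no library could be left out, and the spread between cultures is unknown. No gene called among the apoptosis regulators changed direction under the 11 alternatives, although 29 of 350 values, none of them called, had the opposite sign. The cause of the moves below was not tested. With a preset coefficient of variation of 0.4 in edgeR's exact test at an unadjusted p of 0.05, 0 of the regulators were called higher and 2 lower (BCL2 and CASP10) in MM468/PR cells. The count called lower was 3 with TPM and a pseudocount of 1 or 0.1 (BCL2, CASP10 and BAD), and 2 with FPKM and a pseudocount of 1 (CASP10 and BAD).
Over all genes, the number past 2-fold was 6952 higher and 4033 lower with no count minimum, and 1584 higher with a minimum of 100. It was 2108 higher with the counting interval beyond 2-fold, 2031 higher and 1037 lower by the preset test, 2607 and 1055 with TPM and a pseudocount of 1, 1580 lower with a pseudocount of 0.1, and 1374 and 882 with FPKM.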

Other observations

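The deposited FPKM values divide by a length that depends on the transcripts assigned to a gene, so counts divided by FPKM give that length. Over 11955 genes with 100 or more counts in both libraries, the central 95% of the ratio of this length in MM468/PR to parental cells was 0.878 to 1.11, and 0 of 39 apoptosis regulators lay outside it. The values nearest to its ends, named after they were seen, were those of CASP1, with 1.67 kb in parental MM468 and 1.85 kb in MM468/PR cells, and of CFLAR, with 9.38 and 8.32 kb. No transcript-level table was used, so the transcripts behind these lengths are not named.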
